A study of Mus musculus with 24 samples.

Results

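The genes described here are 8 neurotrophic factors and receptors, chosen by symbol from a fixed list and found in all 4 deposited expression tables, out of 14769 genes listed in any table. They are the ligands Bdnf, Igf1 and Fgf2, the tyrosine kinase receptors Ntrk2, Ntrk3, Igf1r and Fgfr1, and the sorting receptor Sort1. All 8 passed whatever filter the authors had set on low values. The cortical RNA was that of male mice, 3 to 4 months old, that had undergone transient middle cerebral artery occlusion (tMCAo), in which a filament blocks the artery for 1 h and is then withdrawn to restore blood flow for 1 day. Animals were wild type (WT) or knockout (KO) for ciRS-7, a circular RNA from the Cdr1as locus that binds the microRNA miR-7, and the strain given for both genotypes is C57BL/6N-Cdr1asem1Nikr. Each of 6 WT and 6 KO animals gave a CL and a PI library, marks that the labels do not spell out and that are kept here, so the 24 libraries form 4 groups of 6, CL and PI of each genotype. Every animal had the occlusion, and no group from animals without it is part of these comparisons.

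Neurotrophins are secreted proteins that keep neurons alive and tune their synapses. BDNF binds the receptor tyrosine kinase TrkB, the product of Ntrk2, and is produced by active neurons, while TrkC, the product of Ntrk3, is the receptor for neurotrophin-3. Sortilin, the product of Sort1, sorts neurotrophins inside the cell and serves with the p75 receptor as a surface receptor for their uncleaved forms. IGF-1 acts through the receptor encoded by Igf1r and in the injured brain is made largely by microglia, and FGF-2 acts through receptors such as that of Fgfr1 and is made largely by astrocytes.

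The start regions of Bdnf and Fgf2 are shown, which among the ligands had larger differences between PI and CL below than Igf1. The difference of Bdnf was not called, and the part of any site in these differences was not tested. Of the 8 genes, 5 had a window of 250 bases before an annotated start in RefSeq (GRCm38.p6), 11 windows in all, of which Bdnf had 7. Ntrk3, Fgfr1 and Sort1 had none. Both strands were searched for TGACG, the core of the cAMP response element bound by CREB, for TGANTCA, an AP-1 site, for TTCNNNGAA, a STAT site, and for GCGNGGGCG, an EGR site, and matches are in capitals. The only 1 of the 7 Bdnf windows with a CREB core (chr2:109692186-109692435, plus strand) and the Fgf2 window (chr3:37348403-37348652, plus strand) read as follows.
Bdnf: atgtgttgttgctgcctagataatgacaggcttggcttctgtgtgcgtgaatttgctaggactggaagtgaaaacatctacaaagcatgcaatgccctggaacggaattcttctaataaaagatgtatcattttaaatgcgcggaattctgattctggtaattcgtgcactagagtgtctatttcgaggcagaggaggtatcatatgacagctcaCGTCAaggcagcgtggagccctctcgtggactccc
Fgf2: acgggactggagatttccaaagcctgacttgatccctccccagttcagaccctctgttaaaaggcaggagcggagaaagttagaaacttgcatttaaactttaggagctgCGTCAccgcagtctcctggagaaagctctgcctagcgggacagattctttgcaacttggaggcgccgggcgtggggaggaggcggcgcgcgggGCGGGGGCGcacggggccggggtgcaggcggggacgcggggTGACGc
In this Bdnf window the capitals mark a CREB core, read on the minus strand, that begins 35 bases before the start. In the Fgf2 window they mark CREB cores that begin 140 and 6 bases before the start and an EGR site that begins 47 bases before it. Among 32851 windows of this length, 17.8% held a CREB core, 6.75% an AP-1 site, 7.02% a STAT site and 4.70% an EGR site. These shares hold per window, and the 7 windows of Bdnf gave it more tries at a match than a single window. Of the other Bdnf windows, 1 held a STAT site, 1 an AP-1 site and the rest no match. The single Igf1 window held an AP-1 site, and those of Igf1r and Ntrk2 held no match. These matches are letters in a window and not measured binding.

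Levels are given as log2 CPM, the base 2 logarithm of counts scaled to library size, as the authors deposited them. For every gene the outer values of a group equal its quartiles in the deposited tables, so that the lowest and the highest value printed below are each shared by at least 2 libraries, and the true extremes are not known. Overlap of groups and counts of animals below therefore refer to deposited values, and where the second lowest and second highest libraries, which can be solved from these, change what they show, that is said. Where CL and PI do not overlap, a count of 6 of 6 animals follows from that and adds nothing to it. Group levels are trimmed means with their standard error (SE, n = 6 libraries), and differences were tested with a trimmed-mean test moderated across all genes of a table, with Benjamini-Hochberg adjustment and a call at an adjusted p under 0.05. The spacing of low values gave an effective depth of 5.26 to 10.5 M reads per library, which put 56 to 225 reads behind a value of Fgf2, the member with the fewest, and 2636 to 6456 behind one of Ntrk2. Reads are not independent molecules, and these depths bear on counting error only. Where KO and WT share a table, Cdr1as ran from 11.75 to 11.89 log2 CPM in CL WT and from 11.35 to 11.52 in PI WT, and the highest value listed for KO was -2.59, less than 3 reads. The cortical markers Slc17a7, Tbr1, Cux2, Bcl11b, Fezf2 and Rorb summed to 958 to 1065 CPM in CL WT and 859 to 919 CPM in PI WT, and to 962 to 1011 CPM in CL KO and 788 to 876 CPM in PI KO. Of these, Rorb was lower in PI WT by the test (log2 fold change -0.78, adjusted p = 0.00186) and Tbr1 in PI KO (-0.26, adjusted p = 0.0272). Of 6 striatal markers, Drd1, Ppp1r1b and Rgs9 were listed, at a summed 52.0 to 63.7 CPM in CL WT and 68.9 to 91.1 CPM in PI WT, and 49.7 to 60.0 CPM in CL KO and 61.6 to 88.5 CPM in PI KO. Ppp1r1b was higher in PI WT (0.63, adjusted p = 0.0159). Both marker sums thus moved with side in each genotype without overlap, and the part of tissue makeup in the differences between PI and CL was not tested.

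Per kilobase of exon sequence, Sort1 and Ntrk2 were far more abundant than the other members. In CL WT, Sort1 stood at 69.7 CPM per kb (range 68.3 to 71.3) and Ntrk2 at 31.7 (31.2 to 32.3), ahead of Bdnf at 4.31 (3.71 to 5.14). Ntrk3 at 2.92, Fgfr1 at 2.89 and Igf1 at 2.72 followed with ranges that overlapped one another, then Igf1r at 2.02 and Fgf2 at 1.58, the least abundant. In PI WT the order from the top was Sort1, Ntrk2 and Bdnf again, with Fgf2 now at 3.53 CPM per kb (3.08 to 4.06), inside the range of Fgfr1 at 3.61 (3.42 to 3.78) and above Ntrk3 and Igf1. In PI KO Fgf2 at 3.21 (2.94 to 3.56) likewise overlapped Fgfr1 at 3.10 (2.96 to 3.21). These lengths join the exons of all annotated transcripts of a gene and so place genes roughly, and transcripts that encode the full and the truncated TrkB are not separated in values per gene.

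The question of side is which members differed between PI and CL cortex of the same animals. The test took PI and CL as separate groups, so its SE, p and intervals do not use the pairing by animal. Of the 8 members, 4 passed the test in WT, with Fgf2 and Fgfr1 higher and Ntrk2 and Sort1 lower in PI. In KO 3 passed, Fgf2 higher and Ntrk2 and Sort1 lower. Among all genes 5.20% were called higher and 5.40% lower in WT (of 14489), and 5.11% higher and 4.94% lower in KO (of 14338). The median log2 fold change of the members was 0.04 in WT and -0.08 in KO, beside 0.01 and -0.0007 over all genes.

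**Figure D1:**
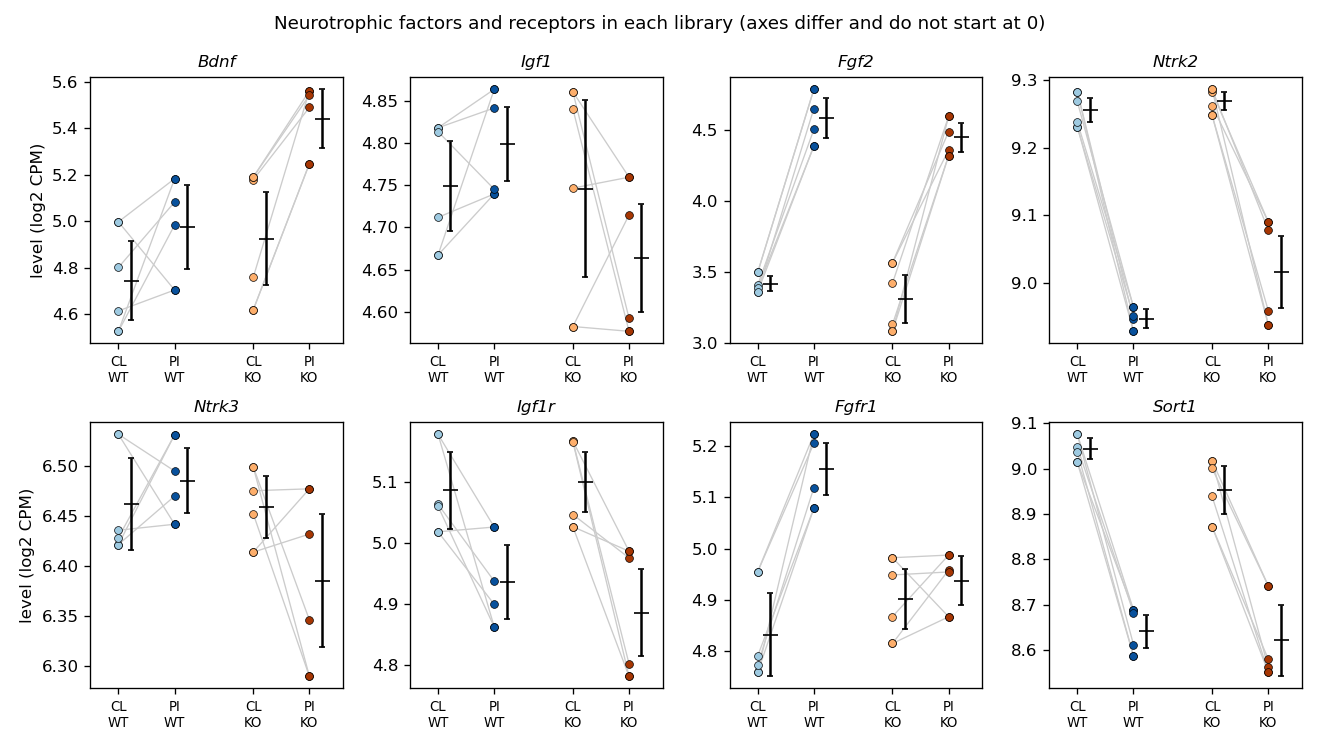
Level of each member (log2 CPM, vertical axes differ) in the 24 libraries, with grey lines joining the CL and PI library of an animal, and the trimmed mean ± SE (n = 6) beside each group. In the deposited values Fgf2 is higher in PI in all 12 animals, Ntrk2 and Sort1 are lower in all 12, and Igf1 and Ntrk3 overlap between CL and PI in both genotypes.

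Fgf2 (chromosome 3, 37348346 to 37410108, plus strand, GRCm38 with GENCODE M21), which encodes a growth factor for glia, endothelium and neural progenitors, showed the largest difference of the 8. In WT its values ran from 3.36 through a median of 3.40 to 3.50 log2 CPM in CL and from 4.38 through 4.57 to 4.78 in PI. The deposited values did not overlap, and each was higher in PI than in CL of the same animal. In KO they ran from 3.08 (median 3.28) to 3.57 in CL and from 4.32 (median 4.42) to 4.59 in PI. Here too the groups were apart, and 6 of 6 animals had the higher deposited value in PI, while CL KO was more spread than CL WT. The rise was 1.16 on the log2 scale in WT (SE 0.13, adjusted p = 0.000168), a 2.24-fold level, and 1.14 in KO (SE 0.16, adjusted p = 0.000872), a 2.20-fold level. Values higher in PI without overlap were found in 16.5% of all genes in WT and 17.1% in KO.

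The exons of Fgf2 share 640 bases with those of Nudt6, an overlapping gene on the opposite strand known as the FGF2 antisense gene, and whether the counting used strand is not given in the sources used here. Nudt6 was low, 1.27 ± 0.20 log2 CPM in CL WT and 0.99 ± 0.17 in PI WT (SE, n = 6 each). In KO it stood at 0.98 ± 0.16 in CL and 1.36 ± 0.14 in PI (SE, n = 6 each). It was not called in either genotype (log2 fold change -0.28, adjusted p = 0.603 in WT and 0.38, adjusted p = 0.412 in KO). At these levels Nudt6 had 11 to 23 reads in a library.

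Bdnf (chromosome 2, 109674700 to 109727007, plus strand), the ligand of TrkB, had higher trimmed means in PI without passing the test in either genotype. In WT its values ran from 4.53 (median 4.71) to 5.0 log2 CPM in CL and from 4.70 (median 5.03) to 5.18 in PI, with overlap, and 5 of 6 animals had the higher value in PI. In KO they ran from 4.62 (median 4.97) to 5.19 in CL and from 5.25 (median 5.52) to 5.56 in PI. The deposited values of the KO groups lay 0.06 apart, with 6 of 6 higher in PI, but the groups overlapped once the inner values were solved, the second lowest library of PI standing at 5.17 and the second highest of CL at 5.19. The difference was 0.23 in WT (SE 0.18, adjusted p = 0.496, 95% interval -0.16 to 0.62). In KO it was 0.52 (SE 0.18, adjusted p = 0.0826, 95% interval 0.14 to 0.90). In all 4 groups the SE of Bdnf was the largest of the 8 members. Annotated antisense genes share exon bases with Bdnf (Gm45346, 896 bases), Sort1 (Gm12523, 338 bases) and Fgfr1 (Gm16159, 164 bases), and none of these was listed in the tables.

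Igf1 (chromosome 10, 87858265 to 87937042, plus strand), the ligand of the IGF-1 receptor, showed no difference that passed the test. Its trimmed mean was 4.75 ± 0.05 log2 CPM in CL WT and 4.80 ± 0.04 in PI WT (SE, n = 6 each). In KO it was 4.75 ± 0.11 in CL and 4.66 ± 0.06 in PI (SE, n = 6 each). Values ran from 4.67 to 4.82 in CL WT and from 4.74 to 4.86 in PI WT, and in KO from 4.58 to 4.86 in CL and from 4.58 to 4.76 in PI, with overlap throughout. The difference between PI and CL was 0.05 in WT (95% interval -0.12 to 0.22, adjusted p = 0.772) and -0.08 in KO (95% interval -0.32 to 0.16, adjusted p = 0.705). These intervals leave out a change as large as that of Fgf2 in either direction. Of the 8 microglial markers, 3 were higher and 2 lower in PI WT, and 3 higher and 1 lower in PI KO. C1qa and Cx3cr1 were higher and P2ry12 lower in both. Their summed level was 169 to 179 CPM in CL WT, 173 to 195 CPM in PI WT, 177 to 194 CPM in CL KO and 189 to 227 CPM in PI KO, and their part in the values of Igf1 was not tested.

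Ntrk2 (chromosome 13, 58806569 to 59133970, plus strand), which encodes TrkB in neurons and a kinase-lacking form in astrocytes, was lower in PI. In WT its values ran from 9.23 (median 9.25) to 9.28 log2 CPM in CL and from 8.93 (median 8.95) to 8.96 in PI. Within WT these were the tightest groups of any member, and they lay 0.27 apart. In KO they ran from 9.25 (median 9.27) to 9.29 in CL and from 8.94 (median 9.02) to 9.09 in PI. PI KO was the more spread group, with all its deposited values below those of CL KO. Ntrk2 fell by 0.31 in WT (SE 0.05, adjusted p = 0.000967), to 0.807 of the CL level, and by 0.25 in KO (SE 0.06, adjusted p = 0.0152), to 0.839 of it. The call in KO was lost with a prior variance that did not depend on level (adjusted p = 0.0813) and without moderation (adjusted p = 0.0612).

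Sort1 (chromosome 3, 108284082 to 108361511, plus strand), encoding sortilin, was likewise lower in PI in the deposited values of all 12 animals. In WT its values ran from 9.01 (median 9.04) to 9.08 log2 CPM in CL and from 8.59 (median 8.65) to 8.69 in PI. In KO they ran from 8.87 (median 8.97) to 9.02 in CL and from 8.55 (median 8.57) to 8.74 in PI. Neither genotype showed overlap, and the gap was 0.33 in WT and 0.13 in KO. Sort1 fell by 0.40 in WT (SE 0.05, adjusted p = 0.000423), to 0.756 of the CL level, and by 0.33 in KO (SE 0.08, adjusted p = 0.0189), to 0.794 of it. As for Ntrk2, the KO call was lost with the level-independent prior (adjusted p = 0.0911) and without moderation (adjusted p = 0.115). Values lower in PI without overlap were found in 16.3% of all genes in WT and 17.2% in KO.

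The summed levels of 2 cell type lists moved the same way as Ntrk2 and Sort1. The 8 neuronal markers summed to 8480 to 9063 CPM in CL WT and 7330 to 8121 CPM in PI WT, and to 8344 to 8743 CPM in CL KO and 7173 to 7887 CPM in PI KO. Most of this sum was Snap25, Map2 and Syt1 (means of 11.4, 11.1 and 10.8 log2 CPM in WT). Of the 8, Nefl, Snap25 and Syt1 were lower in PI in both genotypes, and Gad2 was higher in PI KO. In WT Gad2 (0.28), Gad1 (0.11) and Slc17a7 (0.007) had uncalled differences above 0, and Rbfox3 (-0.18) and Map2 (-0.09) uncalled ones below 0. In KO Gad2 was the only 1 above 0. The 7 astrocyte markers summed to 7521 to 7927 CPM in CL WT and 6532 to 6934 CPM in PI WT, and to 7541 to 8044 CPM in CL KO and 6341 to 7028 CPM in PI KO. Most of this sum was Slc1a2 (mean 12.6 log2 CPM in WT, beside 8.78 for Slc1a3, the next highest). Of the 7, Gja1 was lower and Aqp4 higher in PI in both genotypes, and Slc1a2 and Gjb6 were lower in PI WT. Aqp4 and Aldh1l1 were the 2 with a difference above 0 in each genotype, Aldh1l1 uncalled at 0.27 in WT and 0.15 in KO. The 6 oligodendrocyte markers summed to 2080 to 2272 CPM in CL WT and 1429 to 2039 CPM in PI WT, with overlap in KO (1663 to 2254 CPM in CL and 1590 to 1806 CPM in PI). Cnp was lower in PI WT. In bulk tissue, fewer cells of a type and less RNA per cell cannot be told apart. The part of cell makeup in the falls of Ntrk2 and Sort1 was not tested.

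The 6 reactive astrocyte genes moved with Fgf2. They were higher in PI in 6 of 6 cases in both genotypes, with a median log2 fold change of 2.45 in WT and 2.39 in KO. Their summed level was 99.8 to 123 CPM in CL WT and 402 to 466 CPM in PI WT, and 94.9 to 112 CPM in CL KO and 387 to 543 CPM in PI KO. The 6 endothelial markers gave no call in either genotype (summed 43.9 to 68.6 CPM in CL WT, 53.9 to 82.9 CPM in PI WT, 52.9 to 64.5 CPM in CL KO and 61.1 to 70.8 CPM in PI KO). Of the 7 pericyte and fibroblast markers, Dcn was higher in PI in both genotypes, and their sum was 96.8 to 125 CPM in CL WT, 113 to 132 CPM in PI WT, 104 to 124 CPM in CL KO and 126 to 137 CPM in PI KO. Of the neutrophil and monocyte markers S100a8, S100a9, Ly6g, Ccr2, Mmp8, Ly6c2 and Plac8 were not listed in the tables of PI and CL, and Cd14, which microglia also make, was higher in PI by 3.41 in WT and 3.04 in KO. Their part in the change of Fgf2 was not tested.

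Fgfr1 (chromosome 8, 25513654 to 25575718, plus strand), a receptor for FGF-2, was higher in PI in WT. Its values there ran from 4.76 (median 4.78) to 4.95 log2 CPM in CL and from 5.08 (median 5.16) to 5.22 in PI, without overlap and in 6 of 6 animals. In KO they ran from 4.82 (median 4.91) to 4.98 in CL and from 4.87 (median 4.96) to 4.99 in PI, with overlap, although 5 of 6 animals had the higher value in PI. The rise in WT was 0.32 (SE 0.09, adjusted p = 0.0380), a 1.25-fold level, and the difference in KO was 0.04 (SE 0.09, adjusted p = 0.848, 95% interval -0.15 to 0.22). The call in WT was lost with the level-independent prior (adjusted p = 0.0870) and without moderation (adjusted p = 0.119).

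Ntrk3 (chromosome 7, 78175959 to 78738012, minus strand), encoding TrkC, and Igf1r (chromosome 7, 67952827 to 68233668, plus strand), encoding the IGF-1 receptor, were not called. Ntrk3 ran from 6.42 to 6.53 log2 CPM in CL WT and from 6.44 to 6.53 in PI WT, and in KO from 6.41 to 6.50 in CL and from 6.29 to 6.48 in PI. Its groups overlapped, and the differences were 0.02 in WT (95% interval -0.11 to 0.16) and -0.07 in KO (95% interval -0.23 to 0.08), with adjusted p = 0.872 and adjusted p = 0.591. The interval for Ntrk3 in WT leaves out a fall as large as that of Ntrk2. Igf1r ran from 5.02 (median 5.06) to 5.18 in CL WT and from 4.86 (median 4.92) to 5.03 in PI WT, which met at their edges. In KO it ran from 5.03 (median 5.11) to 5.17 in CL and from 4.78 (median 4.89) to 4.99 in PI, which did not overlap. The differences of Igf1r were -0.15 in WT (SE 0.09, adjusted p = 0.326, lower in 5 of 6 animals) and -0.21 in KO (SE 0.09, adjusted p = 0.158, lower in 6 of 6).

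**Figure D2:**
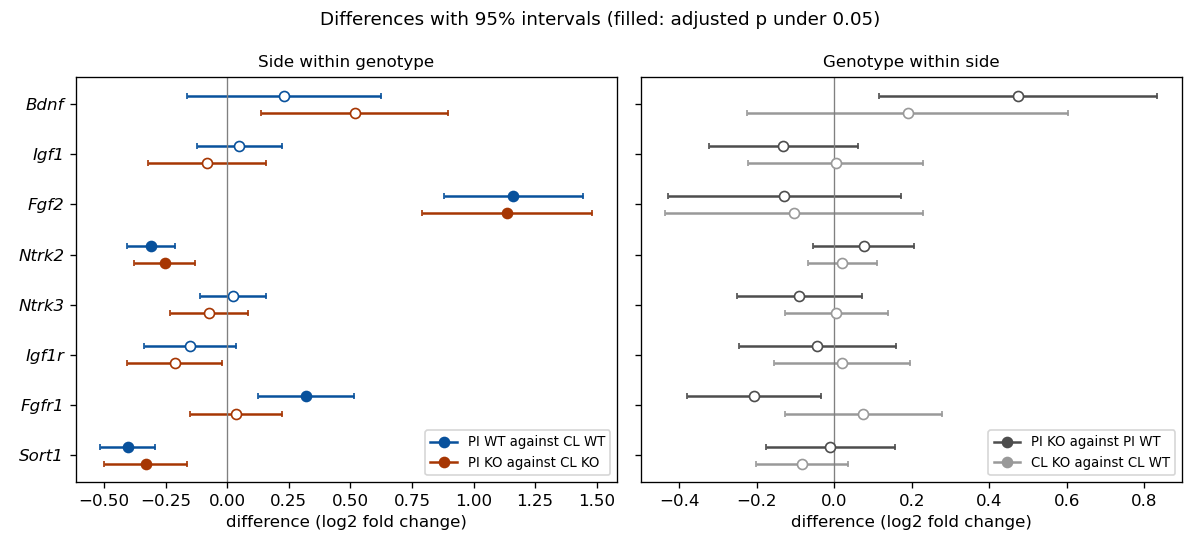
Differences of the 8 members (log2 fold change with 95% intervals) between PI and CL in each genotype (left) and between KO and WT on each side (right), where filled points passed an adjusted p under 0.05. Fgf2 stands apart at 1.16 and 1.14 on the left, and no point on the right is filled.

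Whether the difference between PI and CL was itself larger or smaller in KO than in WT was tested across all 4 groups as the log2 fold change in KO less that in WT, so that a value above 0 means a larger rise or a smaller fall in KO. None of the 8 passed the moderated trimmed-mean test, nor did any of the 14211 genes tested (0% called, beside 4.55%, or 646 genes, that reached p under 0.05 before adjustment). Fgfr1, which passed the test of side in WT and not in KO, had a difference of -0.29 between the genotypes (SE 0.12, adjusted p = 0.992, 95% interval -0.55 to -0.03), and was the single member to reach p under 0.05 before adjustment. When limma was run on the values as deposited, with their narrowed spread, it called 1940 genes, Fgfr1 among them (adjusted p = 0.00420). For Bdnf the difference was 0.29 (95% interval -0.30 to 0.87) and for Fgf2 -0.03 (95% interval -0.48 to 0.43). The difference was 0.06 for Ntrk2 (95% interval -0.09 to 0.20) and 0.07 for Sort1 (95% interval -0.13 to 0.27).

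The question of genotype is which members differed between KO and WT on 1 side. None of the 8 was called in PI (0.0208% of 14452 genes called) or in CL (0.0279% of 14323 genes called). In PI 2 of the 8, Bdnf and Fgfr1, reached p under 0.05 before adjustment, beside 5.75% of all genes, and in CL none did, beside 5.73%. With limma run on the values as deposited, those 2 were called in PI (adjusted p = 0.00510 for Bdnf and 0.00357 for Fgfr1) and none of the 8 in CL. In the table that holds both PI groups, Bdnf ran from 4.73 (median 5.06) to 5.21 log2 CPM in WT and from 5.28 (median 5.55) to 5.60 in KO. The deposited values lay 0.07 apart with KO higher, as in 6.94% of all genes, but the libraries overlapped once the inner values were solved, the second lowest of PI KO standing at 5.20 and the second highest of PI WT at 5.24. The difference was 0.48 (SE 0.17, adjusted p = 0.854, 95% interval 0.12 to 0.83). In the CL table Bdnf ran from 4.49 (median 4.67) to 4.96 in WT and from 4.59 (median 4.94) to 5.16 in KO, with overlap, and differed by 0.19 (SE 0.19, adjusted p = 0.950, 95% interval -0.22 to 0.60). No member had groups without overlap in CL, beside 6.70% of all genes with KO higher and 6.77% with KO lower.

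Fgfr1 lay the other way in PI. It ran from 5.11 (median 5.19) to 5.24 log2 CPM in PI WT and from 4.90 (median 4.99) to 5.02 in PI KO, without overlap, as in 7.19% of all genes, and differed by -0.21 (SE 0.08, adjusted p = 0.854, 95% interval -0.38 to -0.03). In CL its groups overlapped and the difference was 0.08 (SE 0.09, adjusted p = 0.971, 95% interval -0.13 to 0.28). Igf1 differed by -0.13 in PI (95% interval -0.32 to 0.06) and by 0.004 in CL (95% interval -0.22 to 0.23), with overlap on both sides. For Fgf2 the differences were -0.13 in PI (95% interval -0.43 to 0.17) and -0.10 in CL (95% interval -0.44 to 0.23). The remaining members, Ntrk2, Ntrk3, Igf1r and Sort1, differed by -0.09 to 0.08 between genotypes on either side, and their groups overlapped. The libraries are those of the comparison between PI and CL, so the values of a gene in both are not independent. The 8 microglial markers summed to 175 to 199 CPM in PI WT and 194 to 233 CPM in PI KO, and the neuronal markers to 7478 to 8265 CPM and 7347 to 8095 CPM. Of the neutrophil and monocyte markers, S100a8, S100a9 and Cd14 were listed for the PI groups. They were higher in PI KO by 1.16, 0.77 and 0.34, uncalled (adjusted p = 0.854, 0.877 and 0.91), at means of 0.96, 1.10 and 3.19 log2 CPM. The part of these cell types in the values of Bdnf and Fgfr1 was not tested.

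**Figure D3:**
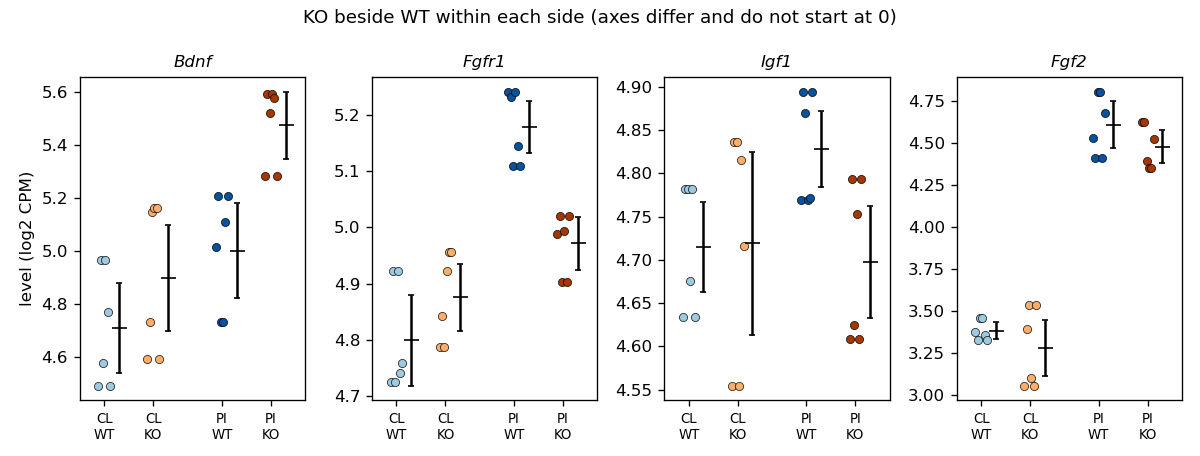
Level (log2 CPM, vertical axes differ) of Bdnf, Fgfr1, Igf1 and Fgf2 in each library of the tables that hold both genotypes, with the trimmed mean ± SE (n = 6). In PI the KO points of Bdnf, as deposited, lie above those of WT by 0.07 and the KO points of Fgfr1 below those of WT by 0.09, while in CL the genotypes overlap for all 4 genes.

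Of 15 genes of the IGF system beside the members, 13 were tested in WT, of which 5 were higher and 1 lower in PI, and 12 in KO, of which 3 were higher and 1 lower. For this list and those below, the shares of all genes were 5.20% higher and 5.40% lower in WT, and 5.11% and 4.94% in KO. The lists were chosen with earlier results of these data known, and none was tested as a set. Genes with an Igfbp symbol, most of which encode carriers of IGFs, made up most of the rises in the IGF list. Such carriers set how much IGF reaches the receptor. Igfbp2 and Igfbp5 were tested and not called in either genotype. Igfbp3 rose by 0.87 in WT (SE 0.13, adjusted p = 0.000938) and 1.10 in KO (SE 0.13, adjusted p = 0.000302). Igfbp7 rose by 0.89 in WT (SE 0.22, adjusted p = 0.0191) and 0.74 in KO (SE 0.14, adjusted p = 0.00516). Igfbp4 (0.54, adjusted p = 0.00119) and Igfbp6 (0.38, adjusted p = 0.0331) rose in WT and in KO stood at differences of 0.20 and 0.27 that were not called. Pappa, a protease that cleaves IGF binding proteins, rose from 0.33 ± 0.20 to 1.94 ± 0.29 log2 CPM in WT (SE, n = 6 each), by 1.60 (SE 0.32, adjusted p = 0.00664). In KO it rose from -0.24 ± 0.20 to 2.14 ± 0.20 log2 CPM (SE, n = 6 each), by 2.38 (SE 0.31, adjusted p = 0.000508). Igf2, a second ligand of the IGF-1 receptor that in brain comes largely from the meninges and choroid plexus, fell by 0.76 in WT (SE 0.10, adjusted p = 0.000367) and by 0.77 in KO (SE 0.17, adjusted p = 0.0114). The median of the list was 0.38 in WT and 0.19 in KO.

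Of 19 further genes of the FGF system, 12 were tested in each genotype, of which 1 was higher and 3 lower in PI in WT, and 1 higher and 1 lower in KO. Fgfrl1, an FGF receptor without a kinase domain, rose by 1.10 in WT (SE 0.22, adjusted p = 0.00657) and 0.94 in KO (SE 0.22, adjusted p = 0.0175). Fgf1, a neuronal FGF, fell by 0.45 in WT (SE 0.09, adjusted p = 0.00645) and in KO differed by -0.24 (adjusted p = 0.134). Flrt2, an adhesion protein of a family that binds FGF receptors, fell by 0.32 in WT (SE 0.07, adjusted p = 0.0149) and 0.34 in KO (SE 0.08, adjusted p = 0.0247). Its relative Flrt3 fell by 0.32 in WT (SE 0.07, adjusted p = 0.0136) and differed by -0.19 in KO (adjusted p = 0.125). The median of the list was -0.19 in WT and -0.18 in KO.

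Of 17 further genes of the neurotrophin system, 12 were tested, of which 1 was higher and 1 lower in PI in WT and 1 higher in KO. Sorcs3, a relative of sortilin, rose by 0.31 in WT (SE 0.09, adjusted p = 0.0451) and by 0.40 in KO (SE 0.11, adjusted p = 0.0391), opposite to Sort1. Both calls of Sorcs3 were lost with the level-independent prior and without moderation, and in WT it missed the threshold after the median change of all genes was subtracted (adjusted p = 0.0512). Pcsk1, a convertase of neuropeptide precursors, fell by 0.53 in WT (SE 0.14, adjusted p = 0.0245) and differed by -0.49 in KO (adjusted p = 0.0836).

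Of 10 genes of the GDNF family, 5 were tested, with 2 higher in PI in each genotype and none lower. Ret, the signalling receptor of this family, rose from 1.12 ± 0.13 to 2.58 ± 0.35 log2 CPM in WT (SE, n = 6 each), by 1.46 (SE 0.30, adjusted p = 0.00759). In KO it rose from 1.07 ± 0.23 to 2.59 ± 0.22 log2 CPM (SE, n = 6 each), by 1.51 (SE 0.27, adjusted p = 0.00442). The coreceptor Gfra2 rose by 0.36 in WT (SE 0.07, adjusted p = 0.00763), and Gfra1 by 0.49 in KO (SE 0.11, adjusted p = 0.0132). In the other genotype they differed by 0.27 (Gfra2 in KO, adjusted p = 0.0984) and 0.20 (Gfra1 in WT, adjusted p = 0.327), the same way. Neither was called between genotypes by the trimmed-mean test. KO less WT, Gfra1 differed by -0.36 in CL (SE 0.11, adjusted p = 0.638) and -0.07 in PI (SE 0.11, adjusted p = 0.948). Gfra2 differed by 0.06 in CL and -0.04 in PI. Of 12 other trophic genes, 11 were tested in WT and 10 in KO, with 1 higher and 2 lower in each. Met, the receptor of hepatocyte growth factor, rose by 0.58 in WT (SE 0.08, adjusted p = 0.000785) and 0.41 in KO (SE 0.09, adjusted p = 0.0134). Pleiotrophin, encoded by Ptn, fell by 0.48 in WT (SE 0.06, adjusted p = 0.000217) and 0.34 in KO (SE 0.06, adjusted p = 0.00303), and the neuregulin receptor gene Erbb4 fell by 0.37 (SE 0.08, adjusted p = 0.00733) and 0.25 (SE 0.06, adjusted p = 0.0175). Of the 17 list genes called in WT and the 12 called in KO, 4 and 4 lost the call with the level-independent prior, and 11 and 9 without moderation. Those kept in both genotypes under all alternatives were Igfbp3 and Ptn. No gene of these 5 lists was called by the trimmed-mean test between KO and WT on either side or for the difference between genotypes. Limma on the values as deposited, with their narrowed spread, was followed for the list genes called between PI and CL. Of these it called 6 between CL KO and CL WT (Fgf1, Flrt2, Gfra1, Igfbp6, Pcsk1 and Ptn) and 1 in PI (Igfbp4). For the difference between genotypes it called 5 (Fgf1, Gfra1, Igfbp4, Pappa and Ptn).

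**Figure D4:**
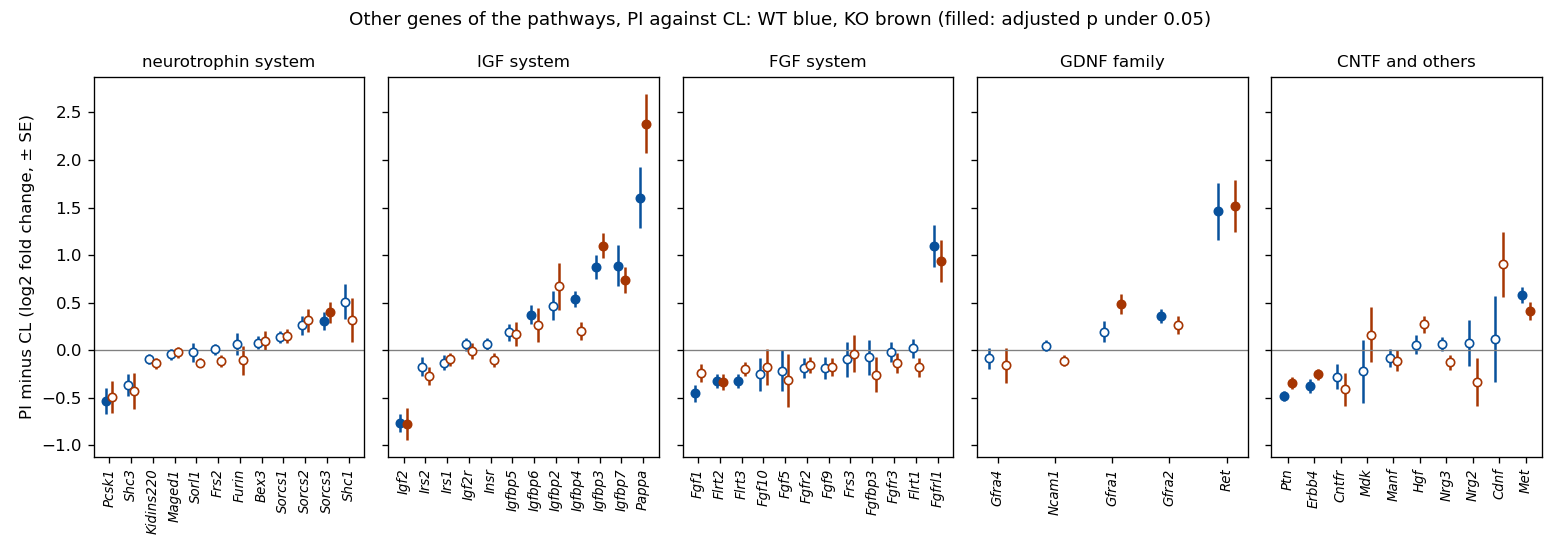
PI minus CL (log2 fold change ± SE) of the pathway genes tested in both genotypes, by list, with WT in blue and KO in brown and filled points at an adjusted p under 0.05. Pappa reaches 2.38 in KO, Ret stands near 1.5 in both genotypes, and most of the FGF list lies below 0.

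The genes whose level followed each ligand most closely were ranked by Pearson r over 24 libraries, as deviations from the mean of the gene in its table of PI and CL, among 13360 genes with a mean of at least 1 log2 CPM. These r take in the shift between PI and CL, libraries of a table share its scaling, the drawn-in extremes raise r, and they are a description. For Fgf2 the closest were Flnc (r = 0.984), a filamin that crosslinks actin, Slc14a1 (r = 0.974), a urea transporter, and Prkab2 (r = 0.972), a subunit of AMP-activated kinase. Among the members, Fgf2 ran with Fgfr1 at r = 0.649 and opposite to Ntrk2 at r = -0.935 and Sort1 at r = -0.933. For Bdnf they were Maea (r = 0.889), a subunit of a ubiquitin ligase, Abce1 (r = 0.875), a ribosome recycling factor, and Ptgs2 (r = 0.870), the inducible cyclooxygenase. Bdnf and its receptor gene Ntrk2 had r = -0.515. For Igf1 they were weaker, with Hnmt (r = 0.741), a histamine methyltransferase, Txlng (r = 0.712) and Gm37331 (r = 0.704), and Igf1 followed Igf1r at r = -0.113.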

How the data were processed

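Ribosome-depleted total RNA of mouse cortex was sequenced in 24 libraries, made with the CORALL total RNA kit after TRIzol extraction and RiboCop depletion, per the labels' protocols. The authors deposited log2 CPM in 4 tables, 1 per pair of groups, each scaled on its own: a library's values in 1 table and in the other lay 0.0256 to 0.0364 apart in the median. Levels are therefore compared within a table. The submitters' processing notes name mm10, the build of the GENCODE M21 positions used. Aligner, counting, strand use, filters and scaling are not given in the sources used here. Column names matched the sample descriptions, with 0 columns unused.

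In every gene and group the deposited log2 values had been Winsorized to the group's quartiles. The 4 inner values were solved from the deposited ones, and their mean was tested with the Winsorized sum of squares, 6 degrees of freedom (12 for 4 groups) and moderation by limma's eBayes with trend (limma 3.58.1, R 4.3.3). That mean equals the mean of the deposited values. The test was tried on simulated data. Effective depth came from the step that made low CPM values whole multiples within 0.1 read (86.8% to 92.1% of values per library).

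CL and PI libraries of 1 number come from the same animal per the labels. Their deviations from the group means correlated at -0.006 to 0.209 in WT and -0.012 to 0.190 in KO, and the fit with the animal as block is among the alternatives. Alternatives were limma on the deposited values with and without that block, a prior without trend, no moderation, 2 recentrings, a minimum mean of 1 log2 CPM and a pseudocount of 1 CPM. Named were all 8 members, Nudt6, called pathway genes (up to 6 with the smallest p per list and comparison) and the 3 genes most like each ligand. Members and lists were chosen with earlier results of these data known.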

Additional observations from a re-analysis of the deposited data

How the results depend on the processing

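Of the 8 alternatives, only the 2 recentrings and the pseudocount could change an estimate. Under these no member changed direction in any of the 5 comparisons. Recentring on the median change of all genes or of the more abundant genes, a minimum mean of 1 log2 CPM and a pseudocount of 1 CPM left every call of the 8 members as it was. With a prior variance without trend, 1015 genes were called between PI and CL in WT (1537 as reported) and 739 in KO (1440), with 1 of the 8 members in KO (3 as reported). Without moderation the counts were 772, 605 and again 1 member in KO, and 2 genes between CL KO and CL WT (4 as reported). The call of Fgfr1 in WT and those of Ntrk2 and Sort1 in KO were lost under both, and that of Fgf2 was kept in both genotypes under every alternative.

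Limma on the deposited values, which takes the drawn-in spread as real, called 6459 genes in WT and 6666 in KO between PI and CL, 2388 between PI KO and PI WT, 2311 between CL KO and CL WT and 1940 for the difference between genotypes. Among the members it called 5 in WT, adding Igf1r (adjusted p = 0.0102), 5 in KO, adding Bdnf and Igf1r, 2 in PI (Bdnf and Fgfr1) and 1 in the difference between genotypes (Fgfr1). With the replicate block (the animal for PI and CL, a shared number only for KO and WT) the same fit called 6614, 6759, 1800, 1868 and 2216 genes and 5, 5, 2 and 1 members, so the pairing changed no call of a member beside limma without it. For Bdnf between PI and CL in KO, limma on this drawn-in spread gave an adjusted p = 0.00175 without the block and 0.000186 with it. Same-numbered KO and WT libraries correlated at -0.181 to 0.134 in PI and -0.133 to 0.134 in CL, and they are different animals. Leaving out single libraries was not run, because the lowest and highest value of each group could not be recovered and are already dropped by the trimmed mean. Depth was low for Nudt6, at 11 to 23 reads, and for Pappa, at 5 to 37 reads in the libraries of PI and CL.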
